A study of Mus musculus with 6 samples.

Results

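Glycolysis and hypoxia response genes were examined in mouse embryonic stem (ES) cells that lack REST, a zinc-finger repressor of neuronal genes. The set was a list of 44 genes, and every array probe of a listed gene was taken by gene symbol, or by the array's target name where the symbol was empty. This gave 60 probes of 41 genes, out of 25697 probes for 17925 genes on the array. Gpi1, Gapdh and Ldhb matched no probe under that rule. The genes were kept in 4 groups by role: 16 genes of glycolytic enzymes, including lactate dehydrogenase (23 probes), 6 genes of glycolytic flux and pyruvate entry into mitochondria (8 probes), 4 genes of HIF subunits and prolyl hydroxylases (9 probes) and 15 HIF target genes (20 probes). The cells were of the E14Tg2a line, an Hprt-deficient mouse ES line. A total of 3 samples were labelled REST KO, with the source name FloResCre, and 3 were labelled control, with the source name FloRes, and the authors' comparison table calls these Rest flox. Total RNA of each was hybridised to 1 array of 1 Illumina MouseRef-8 v2 bead chip. The labels give no treatment, time or culture day for these samples, and do not say whether a genotype is 1 clone or whether replicates were separate cultures. The p-values thus cover the spread among these arrays, and part or all of that spread may be technical.

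Glycolysis splits glucose into pyruvate. The steps that commit sugar to the pathway are those of hexokinase and phosphofructokinase, and lactate dehydrogenase turns pyruvate into lactate where it does not enter mitochondria through the pyruvate dehydrogenase complex. Hypoxia-inducible factor (HIF) is a pair of proteins, an oxygen-labile alpha subunit (from Hif1a or Epas1) and the stable partner Arnt. In oxygen the prolyl hydroxylases encoded by the Egln genes mark the alpha subunit for destruction, and in low oxygen HIF binds a short element with the core RCGTG near genes for glycolysis, angiogenesis, mitophagy and collagen modification. Mouse ES cells are known for a high rate of glycolysis even in oxygen.

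Between 42.5% and 44.9% of all probes were detected per array, and the single Rest probe was detected on none of the 6 (log2 levels of 4.87 to 5.08 in REST KO cells and 4.94 to 5.11 in control cells), so it does not check the labels. Control replicate 2 stood apart from the other controls. In limma's array weights it had 0.309, against at least 1.03 for each of the other arrays. Markers of primed epiblast, the stage after the naive ES state, moved with this: their mean log2 level over 9 genes was 9.25, 9.32 and 8.84 in REST KO replicates 1 to 3, against 7.34, 8.97 and 7.67 in control replicates 1 to 3, and 3 of 11 tested probes (1 of Krt18 and 2 of Wnt8a) were called higher with all arrays. ES cell markers, with 18 of 19 probes detected on all 6 arrays, averaged 10.95, 10.96 and 11.41 in REST KO replicates and 11.87, 11.29 and 11.85 in control replicates. Of 14 fibroblast marker probes 8 were detected on no array, those of the collagen genes Col1a1, Col1a2 and Col3a1 among them, while the 4 probes called higher all belonged to Acta2. The summed intensity of that list was 11700 to 16181 in REST KO cells and 2876 to 4890 in control cells. Of 14 neural progenitor probes 12 were detected on no array, and the 1 tested, of Nes, was detected on 3 REST KO and 0 control arrays. Its log2 levels were 6.64, 6.14 and 6.31 in REST KO cells and 5.27, 5.14 and 5.64 in control cells. This probe was tested only because the REST KO arrays detected it, which favours a higher REST KO value. Its limma adjusted p (0.0504, and 0.0255 without control replicate 2) is therefore no independent support. Of the trophectoderm markers 6 of 9 probes were detected on no array, and the 3 tested were above control without overlap: Gata3, called higher (0.91), Krt8 (1.04, adjusted p = 0.0953) and Cdx2 (0.69, adjusted p = 0.0977). Of the primitive endoderm markers 9 of 13 were detected on none and 1, of Sox7, was called lower. The 4 tested probes of this list went both ways, 2 above 0 and 2 below, with a median log2 fold change of 0.24. Without control replicate 2 limma called 2 of them higher and 1 lower, where 14.5% of all tested probes were called. Results are given with all arrays and, where the call of a named gene changes, also without control replicate 2. The 3 controls lay on the chip's first positions and the REST KO arrays on later ones, so position and genotype cannot be told apart.

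No probe of the 41 tested passed the threshold. A probe was tested when detected on at least 3 of the 6 arrays, and called when limma's adjusted p was under 0.05. The count was 0 of 41 member probes, against 1.27% of the 11388 probes tested across the array (1.05% higher and 0.220% lower in REST KO cells). Adjusted p ran from 0.0521 to 0.974 over the 41 probes, of which 8 had an unadjusted p under 0.05. Across the array 2262 of the 11388 tested probes had one, a similar share. The unadjusted counts of single groups below are to be read against that background. The 41 probes stand for 31 of the 41 genes, and 36 of the 60 member probes were detected on all 6 arrays and 16 on none. The median log2 fold change (REST KO minus control) of the tested members was 0.06, against -0.02 for all tested probes, with 25 members above 0 and 16 below. The 3 arrays of each genotype did not overlap for 7 member probes, 3 of them higher and 4 lower in REST KO cells. Across the array 25.1% of tested probes did not overlap, so the members' share, 17.1%, was not above the background.

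**Figure D1:**
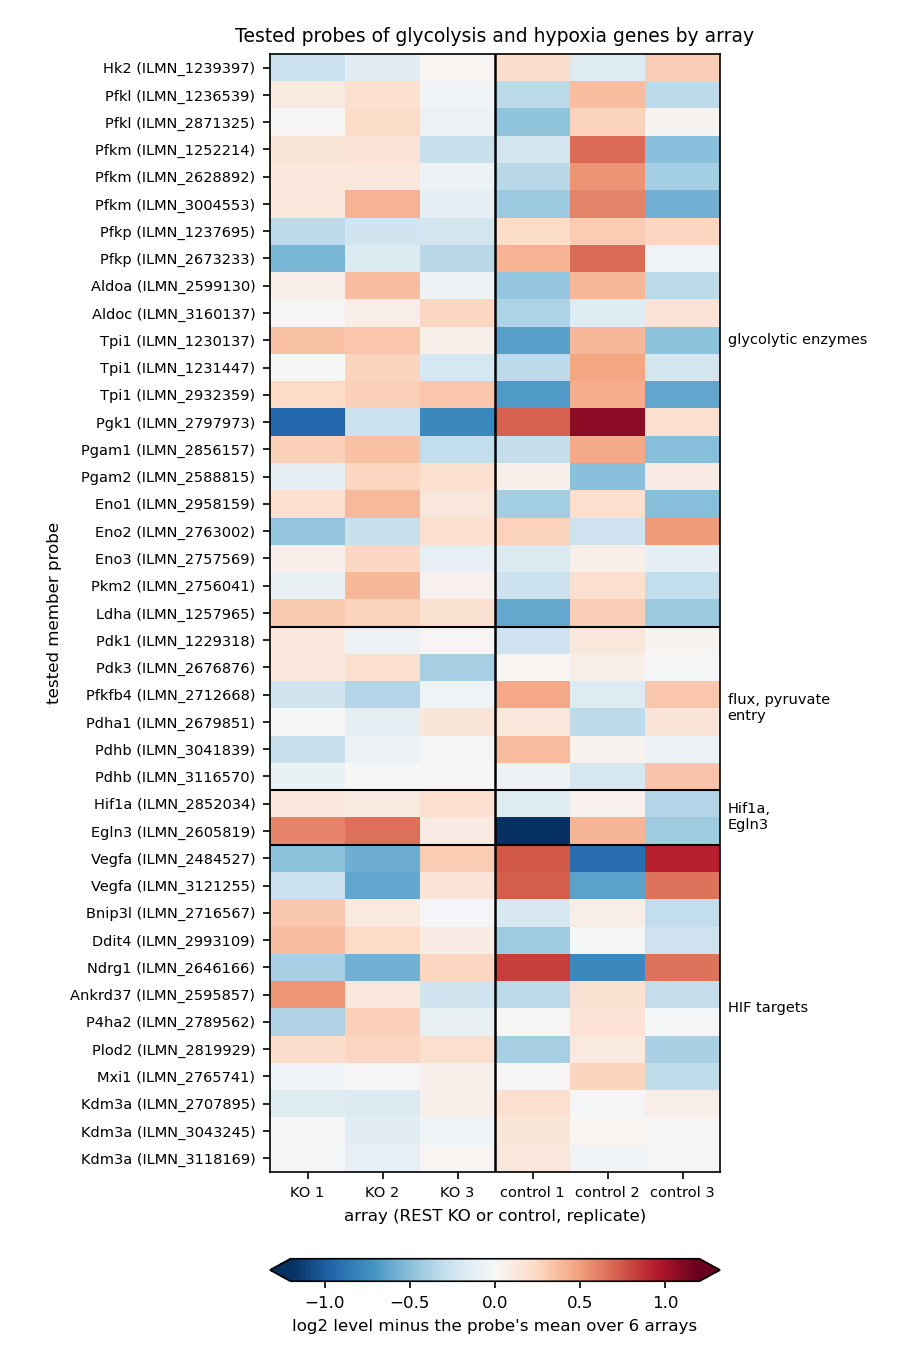
Log2 level of each tested member probe (rows, by role from top to bottom) on each array (columns, REST KO left of control), as the difference from that probe's mean over the 6 arrays; red is above the mean and blue below, and colours saturate at the ends of the scale. Pgk1 and both Pfkp probes are blue on the REST KO side and mostly red on the control side, and in many other rows control replicate 2 has the colour of the REST KO arrays.

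Among the glycolytic enzymes 16 of 21 tested probes had a log2 fold change above 0 and 5 below, with a median of 0.18, and 0 were called (4 had an unadjusted p under 0.05). The enzyme probes with the smallest adjusted p lay on the lower side. Pgk1 encodes phosphoglycerate kinase, the first step of glycolysis that makes ATP, and has 1 probe on the array. Its log2 level was 5.99, 6.67 and 6.16 in REST KO replicates 1 to 3, against 7.64, 8.00 and 7.12 in control replicates 1 to 3. The highest REST KO array was below the lowest control array. The difference was -1.31 ± 0.26 (SE, n = 3 per genotype; control 2.49-fold above REST KO), with a 95% interval of -1.92 to -0.71 and an adjusted p of 0.0587 in limma. All 6 arrays detected the probe, though the REST KO levels lie close to the detection limit, which was 5.86 at its highest.

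Pfkp encodes the platelet-type subunit of phosphofructokinase. Its brightest probe had log2 levels of 9.87, 9.94 and 9.96 in REST KO cells, against 10.40, 10.49 and 10.44 in control cells, with SDs of 0.05 and 0.05. All REST KO arrays were below all control arrays, and the gap between genotypes was wider than the spread within either. The log2 fold change was -0.52 ± 0.09 (limma adjusted p = 0.0521). A second, dimmer Pfkp probe had 6.56, 6.95 and 6.78 in REST KO cells and 7.53, 7.79 and 7.06 in control cells, again without overlap (-0.70 ± 0.20, limma adjusted p = 0.123). The remaining Pfkp probe was detected on no array.

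These are near-threshold values, and the call depends on the normalization and on other settings of the fit. Pgk1 and the bright Pfkp probe were both called lower with quantile normalization without background correction, with median scaling, with an offset of 50 and with a trended, robust eBayes. Neither was called with cyclic loess, without the detection filter, with only probes detected on all 6 arrays or with the replicate number as a block. Nor was either called without control replicate 1 or without any single REST KO array. Without control replicate 3 Pgk1 was called and Pfkp was not. In the authors' deposited table, 2 of the 60 member probes had an adjusted p under 0.05, against 1.74% of its 25695 probes: Pfkp, with a log2 fold change of -0.48 (adjusted p = 0.0133), and Pgk1, with -0.77 (adjusted p = 0.0298). Without control replicate 2 limma also called both, Pgk1 at -1.11 ± 0.24 (adjusted p = 0.0293) and Pfkp at -0.50 ± 0.10 (adjusted p = 0.0253).

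The other phosphofructokinase genes had differences of the opposite sign. The brightest probe of Pfkl, the liver-type subunit, had 12.59, 12.67 and 12.45 in REST KO cells and 12.16, 12.85 and 12.17 in control cells (0.18 ± 0.20, limma adjusted p = 0.644). For Pfkm, the muscle-type subunit, the brightest probe had 10.46, 10.47 and 10.28 in REST KO cells and 10.00, 10.88 and 9.93 in control cells (0.13 ± 0.25, limma adjusted p = 0.814). In both genes control replicate 2 was the highest of the 6 arrays, and the other 2 controls were below every REST KO array. Without control replicate 2 limma called the bright Pfkl probe higher (0.41 ± 0.11, adjusted p = 0.0495) and 2 of the 3 Pfkm probes (0.44 ± 0.11, adjusted p = 0.0436, and 0.65 ± 0.16, adjusted p = 0.0417). No test of the difference between Pfkp and the other isozymes was run, and levels of different probes are not compared.

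Control replicate 2 was also above the other controls for Tpi1, Ldha and Eno1. Tpi1 encodes triose phosphate isomerase, which links the products of aldolase. Its brightest probe had 14.11, 14.09 and 13.82 in REST KO cells, against 13.11, 14.16 and 13.27 in control cells (0.49 ± 0.27, limma adjusted p = 0.347). A second Tpi1 probe had 11.63, 11.68 and 11.73 in REST KO cells and 10.71, 11.84 and 10.77 in control cells (0.57 ± 0.28, limma adjusted p = 0.311). Control replicates 1 and 3 lay below the REST KO arrays on both probes, and control replicate 2 above them. Without it limma called both probes higher in REST KO cells, by 0.81 ± 0.13 (adjusted p = 0.0168) and 0.94 ± 0.10 (adjusted p = 0.00914). The dimmest Tpi1 probe was not called with either set of arrays (0.04 ± 0.23, and 0.29 ± 0.15 without control replicate 2).

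Ldha encodes the lactate dehydrogenase subunit that favours lactate formation. It had 14.17, 14.13 and 14.04 in REST KO cells, against 13.24, 14.15 and 13.42 in control cells. Its log2 fold change was 0.51 ± 0.23 (limma adjusted p = 0.27), and 0.78 ± 0.11 without control replicate 2 (adjusted p = 0.0132). Eno1, the enolase of most tissues, had 14.87, 15.05 and 14.80 in REST KO cells and 14.25, 14.87 and 14.15 in control cells (0.49 ± 0.20, limma adjusted p = 0.231). Control replicate 2 again lay within the REST KO range, and without it the value was 0.71 ± 0.12 (adjusted p = 0.0188).

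The related enolase genes had smaller differences. Eno2, the neuron-enriched enolase, had 7.35, 7.56 and 8.03 in REST KO cells and 8.10, 7.58 and 8.34 in control cells, a difference of -0.36 ± 0.24 (limma adjusted p = 0.446). Eno3, the muscle enolase, had 7.33, 7.51 and 7.17 in REST KO cells and 7.09, 7.33 and 7.16 in control cells (0.14 ± 0.13, limma adjusted p = 0.568). In both genes control replicate 2 lay within the REST KO range and the other 2 controls outside it, above it for Eno2 and below it for Eno3. Neither gene was called without control replicate 2. Eno2 is widely used as a neuronal marker, and here its levels overlapped between the genotypes.

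The aldolases overlapped as well. Aldoa, the broadly expressed aldolase, had 12.00, 12.29 and 11.86 in REST KO cells and 11.46, 12.32 and 11.61 in control cells (0.25 ± 0.23, limma adjusted p = 0.584, and 0.51 ± 0.15 without control replicate 2, adjusted p = 0.0622). Aldoc, the brain aldolase, had 7.08, 7.15 and 7.33 in REST KO cells and 6.70, 6.92 and 7.24 in control cells (0.24 ± 0.16, limma adjusted p = 0.439). Hk2, a hexokinase of the pathway's first step, averaged 12.97 ± 0.14 in REST KO cells and 13.20 ± 0.24 in control cells (SD, n = 3 each, difference -0.23 ± 0.15). Pkm2, the pyruvate kinase gene, averaged 12.84 ± 0.25 in REST KO cells and 12.60 ± 0.27 in control cells (0.24 ± 0.18). Pgam1 and Pgam2, the phosphoglycerate mutases, each had a log2 fold change of 0.23, with standard errors of 0.28 and 0.19. The single Hk1 probe was detected on no array.

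Gapdh is a listed enzyme that the rule did not find, but the array carries 2 probes under GAPD, an older name of that gene in the RefSeq table. They were looked up after the other values were seen. The brighter had 15.37, 15.49 and 15.37 in REST KO cells and 15.42, 15.37 and 15.41 in control cells (0.01 ± 0.09, limma adjusted p = 0.962). The other had 14.56, 14.63 and 14.59 in REST KO cells and 14.54, 14.70 and 14.50 in control cells (0.01 ± 0.10). On neither probe did control replicate 2 differ from the other controls by as much as on Tpi1, Ldha or Eno1.

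**Figure D2:**
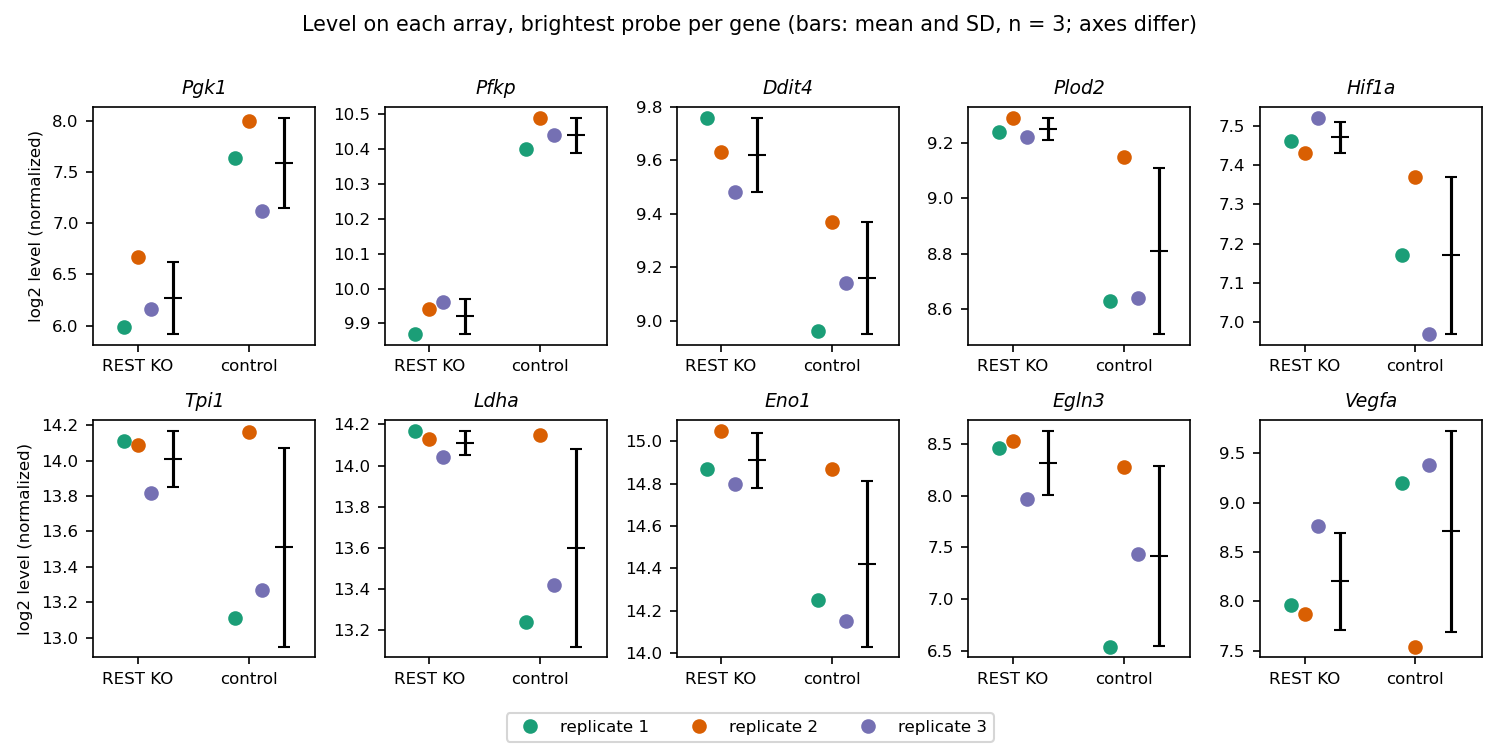
Normalized log2 level of the brightest tested probe of 10 genes on each array, REST KO left of control, with colours for replicates and bars for the mean and SD of 3 arrays; the axes differ between panels. In Pgk1 and Pfkp the REST KO arrays lie below the controls, in Ddit4, Plod2 and Hif1a above them, and in the lower row control replicate 2 (orange) lies near or among the REST KO arrays, away from the other controls.

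Without control replicate 2 limma called 16 of the 41 member probes, or 39%, 10 higher and 6 lower in REST KO cells. In the same fit 14.5% of all tested probes were called (7.16% higher and 7.31% lower). This array was singled out from these same data. It lay nearer to the REST KO mean on 32 of 41 member probes, against 57.6% of all tested probes. Leaving it out therefore favours calls among the members, and their larger share is no independent result. The p-values of this fit hold only given that choice. By group these were 9 of 21 enzyme probes (7 higher, of Eno1, Ldha, Pfkl, Pfkm and Tpi1, and 2 lower, of Pfkp and Pgk1), 1 of 6 for flux and pyruvate entry, 1 of 2 for HIF subunits and prolyl hydroxylases, and 5 of 12 for HIF targets. Array weights, which keep the array but count it less, called 10 member probes (7 higher and 3 lower), where 12.2% of all probes were called. The median log2 fold change of the enzyme probes was 0.38 without control replicate 2, against 0.00 for all tested probes.

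On a probe-by-probe basis control replicate 2 was nearer to the REST KO mean than to the mean of the other 2 controls for 32 of 41 member probes (78%) and for 57.6% of all tested probes. Control replicate 1 was nearer for 9 members (22%, against 31.4% of all) and control replicate 3 for 16 (39%, against 39.7%). For the enzymes alone control replicate 2 was nearer on 16 of 21 probes. The summed intensity of the enzyme probes was 93185 to 106809 in REST KO cells, and 67603, 105027 and 69480 in control replicates 1 to 3. Bright probes, such as those of Eno1, Ldha and Tpi1, weigh most in this sum. The mean log2 level over 15 enzyme genes differed less, at 10.53, 10.72 and 10.55 in REST KO replicates and 10.41, 10.79 and 10.45 in control replicates. The summed intensity of the primed epiblast markers was 21062 to 26027 in REST KO cells, and 8326, 24960 and 10045 in control replicates 1 to 3, with 3 of their 14 probes detected on no array. The part of this marker shift in the enzyme values was not tested. In bulk RNA, fewer cells of a type and less RNA per cell cannot be told apart.

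**Figure D3:**
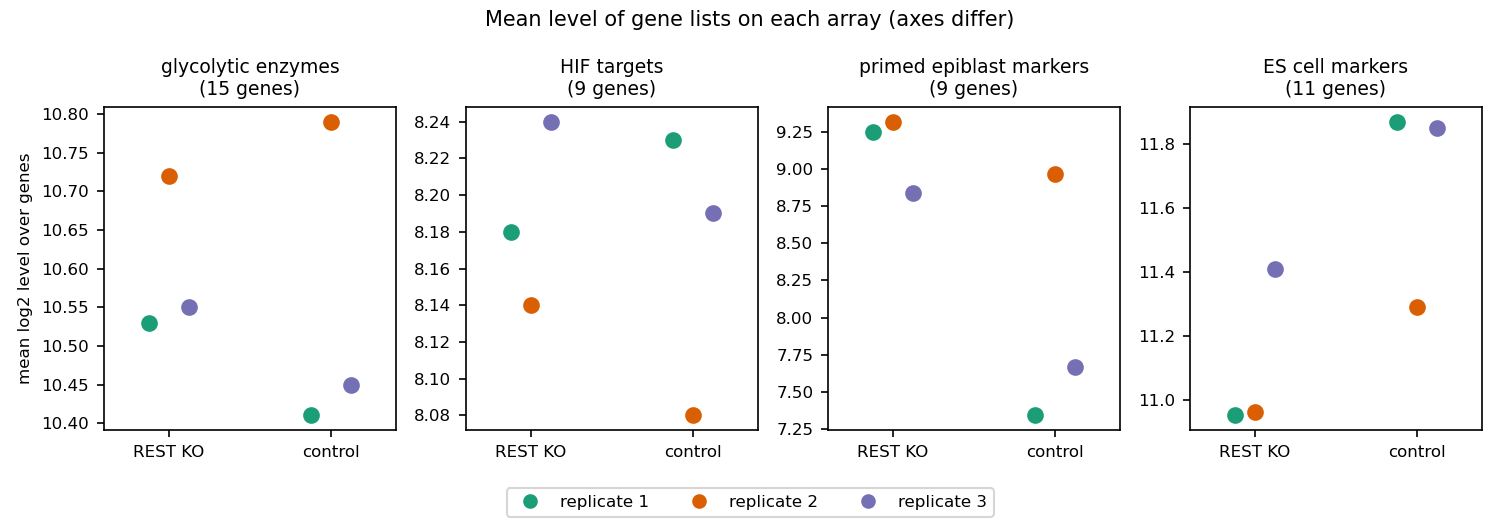
Mean normalized log2 level over the tested genes of 4 lists on each array, brightest probe per gene, REST KO left of control, 1 point per array; the axes differ between panels. Control replicate 2 (orange) is the highest array for the glycolytic enzymes, at 10.79, lies among the REST KO arrays for primed epiblast markers, at 8.97, and is the lowest control for ES cell markers, at 11.29.

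**Figure D4:**
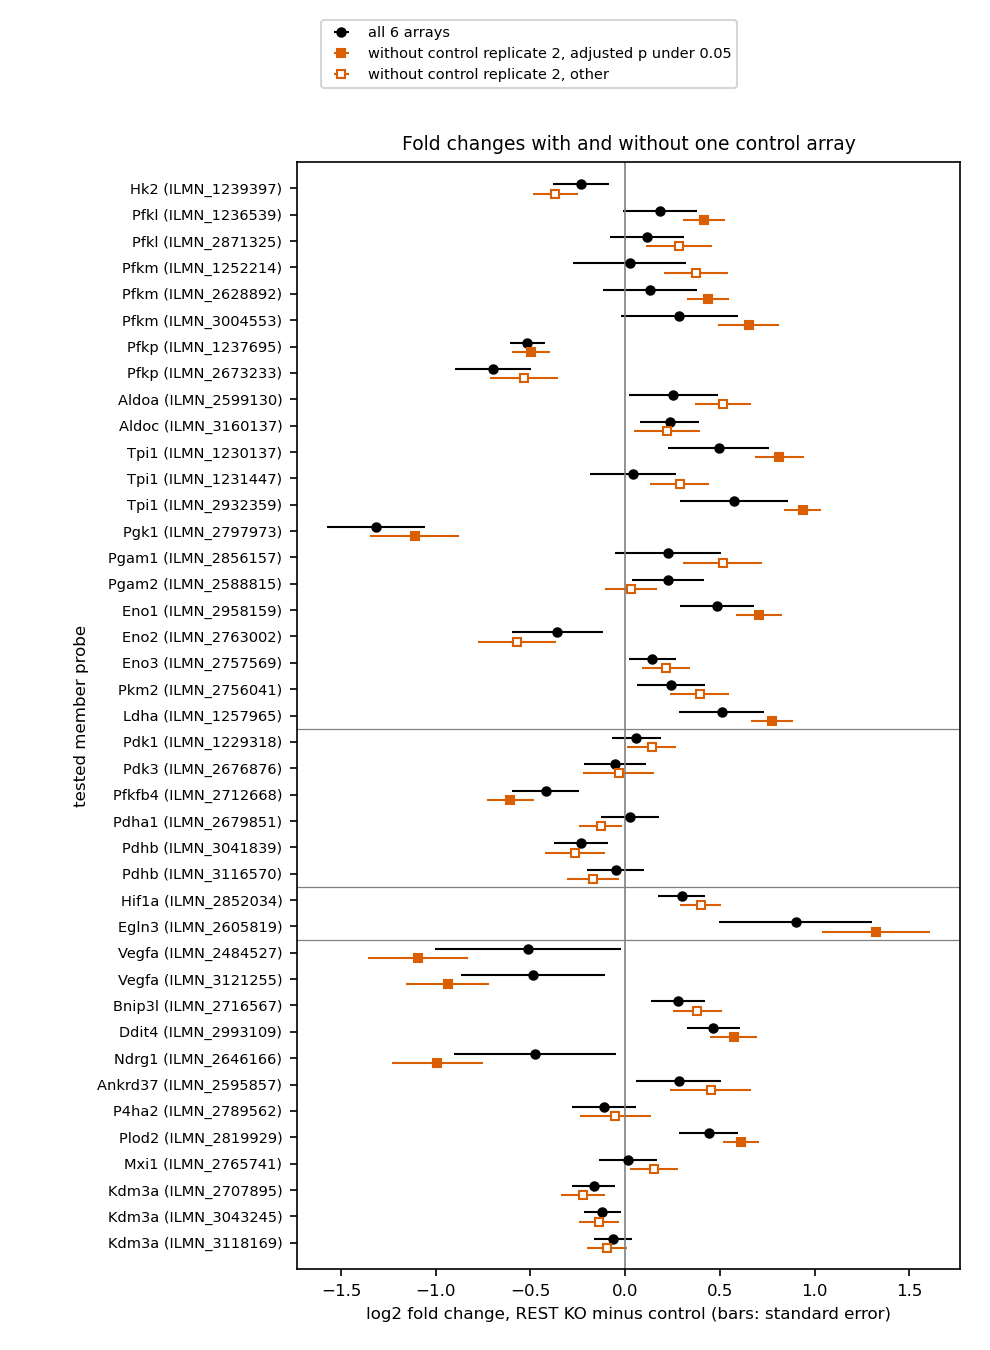
Log2 fold change (REST KO minus control) of each tested member probe with its standard error, from all 6 arrays (black) and without control replicate 2 (orange; filled squares have an adjusted p under 0.05). The Pgk1 and Pfkp points lie left of 0 in both fits, and for Tpi1, Ldha, Eno1, Egln3, Vegfa and Ndrg1 the point moves away from 0 once the array is left out.

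The promoters of Pgk1, Pfkp, Tpi1, Ldha, Eno1 and Ddit4 are shown because these genes had the smallest adjusted p among the enzymes on either side of 0 and among the HIF targets, and the HIF core element can be looked for in them. Each window runs from 250 bases before to 50 bases after the RefSeq start (assembly GRCm38.p6), 5′ to 3′ on the gene's strand, and capitals mark each ACGTG or GCGTG on either strand, so that the reverse complements CACGT and CACGC are capitals too. The windows are chrX:106186850-106187149 (plus strand) for Pgk1, chr13:6648722-6649021 (minus) for Pfkp, chr6:124814109-124814408 (minus) for Tpi1, chr7:46845554-46845853 (plus, the first of 2 starts) for Ldha, chr4:150236458-150236757 (plus, the first of 3 starts) for Eno1 and chr10:59951721-59952020 (minus) for Ddit4.
Pgk1: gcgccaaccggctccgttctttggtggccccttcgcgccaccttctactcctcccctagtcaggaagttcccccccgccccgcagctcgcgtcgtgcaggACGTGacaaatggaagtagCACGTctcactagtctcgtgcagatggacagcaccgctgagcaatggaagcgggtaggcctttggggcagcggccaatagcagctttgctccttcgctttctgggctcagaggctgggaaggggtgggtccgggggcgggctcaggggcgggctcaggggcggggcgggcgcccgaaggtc
Pfkp: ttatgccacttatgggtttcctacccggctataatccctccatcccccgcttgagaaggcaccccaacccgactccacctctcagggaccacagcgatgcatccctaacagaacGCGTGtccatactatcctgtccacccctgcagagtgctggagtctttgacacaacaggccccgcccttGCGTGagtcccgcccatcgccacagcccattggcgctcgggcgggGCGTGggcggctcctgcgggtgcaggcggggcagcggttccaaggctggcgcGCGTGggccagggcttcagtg
Tpi1: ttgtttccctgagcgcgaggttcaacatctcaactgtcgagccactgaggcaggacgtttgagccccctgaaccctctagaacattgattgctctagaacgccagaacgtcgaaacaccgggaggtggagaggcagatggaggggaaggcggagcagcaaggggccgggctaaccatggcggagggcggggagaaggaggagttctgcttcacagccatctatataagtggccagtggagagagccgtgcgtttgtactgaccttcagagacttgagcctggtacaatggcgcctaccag
Ldha: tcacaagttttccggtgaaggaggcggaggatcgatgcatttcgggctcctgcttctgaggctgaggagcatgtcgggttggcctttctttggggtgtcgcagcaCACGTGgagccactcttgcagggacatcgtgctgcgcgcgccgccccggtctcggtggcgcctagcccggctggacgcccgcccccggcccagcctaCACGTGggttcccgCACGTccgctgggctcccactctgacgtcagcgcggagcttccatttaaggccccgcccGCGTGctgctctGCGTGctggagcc
Eno1: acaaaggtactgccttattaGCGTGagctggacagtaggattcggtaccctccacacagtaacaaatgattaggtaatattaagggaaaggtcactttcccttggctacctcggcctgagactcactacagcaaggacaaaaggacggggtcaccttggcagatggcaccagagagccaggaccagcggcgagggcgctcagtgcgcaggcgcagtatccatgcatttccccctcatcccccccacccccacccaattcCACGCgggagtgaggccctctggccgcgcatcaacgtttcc
Ddit4: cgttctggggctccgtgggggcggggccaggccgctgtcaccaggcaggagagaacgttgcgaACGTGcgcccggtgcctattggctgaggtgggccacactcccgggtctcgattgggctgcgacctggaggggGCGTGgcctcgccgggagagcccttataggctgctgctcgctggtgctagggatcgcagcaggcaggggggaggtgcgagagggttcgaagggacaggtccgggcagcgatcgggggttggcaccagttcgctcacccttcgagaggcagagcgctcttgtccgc
The Pgk1 window holds 2 matches, both ACGTG, Pfkp 4, all GCGTG, Ldha 7, counting CACGTG once on each strand, and Eno1 and Ddit4 2 each. Tpi1 holds 0, which says only that these letters are not in this window.

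RefSeq promoters were matched for 40 of the 44 listed genes, with 58 starts. Epas1, Bnip3l, Ndrg1 and Plod2 had no entry. Either motif was present in 45 of the 58 windows (77.6%), against 62.0% of the 7653 windows of genes with a tested probe and 43.8% of all 32851 windows of the same length. ACGTG was in 29 of the members' 58 windows and in 25.6% of those of genes with a tested probe, and GCGTG was in 58.6% of the members' windows and in 50.7% of the tested ones. The enzyme windows held either motif in 22 of 30 cases and the HIF target windows in 13 of 17. These shares describe letters and were not tested, and windows of 1 gene can overlap. Among the enzymes printed here, windows with matches belong to genes with differences of both signs.

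The genes that direct pyruvate had small differences. None of their 6 tested probes was called (1 had an unadjusted p under 0.05), 2 were above 0 and 4 below, and the median was -0.05. Pdk1 and Pdk3 encode kinases that switch off pyruvate dehydrogenase. Pdk1, which is also a known HIF target, had 11.18, 10.99 and 11.07 in REST KO cells and 10.80, 11.19 and 11.08 in control cells (0.06 ± 0.13, limma adjusted p = 0.846). Pdk3 had 8.17, 8.23 and 7.64 in REST KO cells and 8.06, 8.11 and 8.03 in control cells (-0.05 ± 0.17, limma adjusted p = 0.893). The 95% intervals were -0.25 to 0.36 for Pdk1 and -0.44 to 0.33 for Pdk3, so differences within these bounds remain possible.

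Pfkfb4, which makes and removes an activator of phosphofructokinase, had the largest difference of the group. Its log2 level was 6.38, 6.27 and 6.57 in REST KO cells and 7.08, 6.46 and 6.95 in control cells, with control replicate 2 inside the REST KO range. The value was -0.42 ± 0.18 (limma adjusted p = 0.245), and -0.61 ± 0.13 without that array (adjusted p = 0.0275). Pdha1 and Pdhb, the subunits of pyruvate dehydrogenase itself, had log2 fold changes of 0.02 ± 0.15 and, for the 2 Pdhb probes, -0.23 ± 0.14 and -0.05 ± 0.15. The Pfkfb3 probe was detected on no array.

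Of the HIF machinery, Hif1a and Egln3 could be tested, and 0 of their 2 tested probes were called. Hif1a encodes the oxygen-labile subunit, which is controlled mainly as a protein. Its log2 level was 7.46, 7.43 and 7.52 in REST KO cells, against 7.17, 7.37 and 6.97 in control cells. The arrays did not overlap, but the gap to control replicate 2 was smaller than the spread between controls (0.30 ± 0.12, limma adjusted p = 0.241, and 0.40 ± 0.11 without control replicate 2, adjusted p = 0.0536).

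Egln3 encodes a prolyl hydroxylase and is itself a known HIF target. It had 8.46, 8.53 and 7.97 in REST KO cells, against 6.54, 8.28 and 7.44 in control cells. Its difference was 0.90 ± 0.40 (limma adjusted p = 0.271), the largest above 0 among the tested members, and it was 1.32 ± 0.28 without control replicate 2 (adjusted p = 0.0297). The control SD, 0.87, was more than the REST KO SD of 0.31. All 3 probes of Egln1, the main oxygen sensor among the hydroxylases, were detected on no array. Of the 3 Epas1 probes 1 was detected, on 1 REST KO and 1 control array.

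The 12 tested probes of HIF targets had differences of both signs. None was called (2 had an unadjusted p under 0.05), 5 were above 0 and 7 below, and the median was -0.09. Ddit4 encodes an inhibitor of mTORC1 signalling that responds to hypoxia and stress. Its log2 level was 9.76, 9.63 and 9.48 in REST KO cells, against 8.96, 9.37 and 9.14 in control cells, without overlap. The difference was 0.47 ± 0.14 (limma adjusted p = 0.13), and 0.57 ± 0.12 without control replicate 2 (adjusted p = 0.0302).

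Plod2 encodes a lysyl hydroxylase of collagen. It had 9.24, 9.29 and 9.22 in REST KO cells, against 8.63, 9.15 and 8.64 in control cells, and the arrays did not overlap. The log2 fold change was 0.44 ± 0.16 (limma adjusted p = 0.182), and without control replicate 2 it was 0.61 ± 0.10 (adjusted p = 0.0167). Kdm3a encodes a histone demethylase of the jumonji family. Of its 3 probes, 1 did not overlap, with 10.23, 10.11 and 10.19 in REST KO cells and 10.38, 10.26 and 10.25 in control cells. That gap was no wider than the spread within genotypes (-0.12 ± 0.10, limma adjusted p = 0.537), and the other 2 probes had -0.17 ± 0.11 and -0.06 ± 0.10.

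Vegfa and Ndrg1 had differences below 0, unlike Ddit4 and Plod2. Their values on each array are given because their control arrays disagreed, a choice made after the values were seen. Vegfa, the angiogenic growth factor, had 7.96, 7.87 and 8.76 in REST KO cells and 9.20, 7.54 and 9.38 in control cells on its brightest probe (-0.51 ± 0.49, limma adjusted p = 0.604). Its second tested probe had 6.20, 5.83 and 6.61 in REST KO cells and 7.18, 5.81 and 7.11 in control cells, and was detected on 2 arrays of each genotype. On both probes control replicate 2 was the lowest of the 6 arrays. Without it the differences were -1.09 ± 0.26 (limma adjusted p = 0.0394) and -0.94 ± 0.22 (limma adjusted p = 0.036).

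Ndrg1, a stress-responsive gene of differentiation, had 5.62, 5.43 and 6.27 in REST KO cells and 6.84, 5.24 and 6.66 in control cells on its tested probe. Of these arrays 1 REST KO and 2 controls detected it, so background values enter the difference of -0.48 ± 0.43 (limma adjusted p = 0.577, and -0.99 ± 0.24 without control replicate 2, adjusted p = 0.0408). A second Ndrg1 probe was detected on no REST KO array and on 2 of 3 controls, and was not tested. It had 5.77, 5.59 and 5.68 in REST KO cells and 6.34, 5.26 and 6.23 in control cells, so the arrays overlapped. Its control mean was 1.1-fold above the REST KO bound. The bound takes, on each REST KO array, the higher of the lowest detected signal and the probe's own. This control mean includes an array without detection, so the fold is no lower limit on the difference. Plod1, also detected on 2 controls and no REST KO array, was not tested either. It had 5.56, 5.41 and 5.44 in REST KO cells and 6.23, 5.50 and 5.76 in control cells. These arrays overlapped too, and the control mean was 1.02-fold above the bound.

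Other HIF targets had overlapping arrays. Bnip3l, a receptor for the removal of mitochondria, averaged 10.80 ± 0.17 in REST KO cells and 10.53 ± 0.20 in control cells (0.28 ± 0.14, limma adjusted p = 0.329). Ankrd37 had a log2 fold change of 0.28 ± 0.22. P4ha2, a collagen prolyl hydroxylase, had -0.11 ± 0.17, and the Myc antagonist Mxi1 had 0.01 ± 0.15. The probes of Bnip3, P4ha1, Ero1l, Higd1a and Adm, which are classical hypoxia-induced genes, were detected on no array of either genotype. HIF target genes averaged 8.18, 8.14 and 8.24 in REST KO replicates and 8.23, 8.08 and 8.19 in control replicates over 9 tested genes, so the levels of the genotypes overlapped.

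Other genes of these pathways were counted in 6 further lists, and limma called 0 probes in each of them, against 1.27% of all tested probes. Among 8 tested probes of other isozymes and glycolytic genes (0 with an unadjusted p under 0.05), the largest differences were those of Galk1, galactokinase (0.30 ± 0.18, and 0.49 ± 0.12 without control replicate 2, adjusted p = 0.0382), Pfkfb2 (-0.20 ± 0.20) and Eno4 (-0.18 ± 0.13). Among 6 probes of other pyruvate dehydrogenase complex genes (1 with an unadjusted p under 0.05) they were Pdp2, a phosphatase that reactivates the enzyme, Dld (0.28 ± 0.12) and Dlat (-0.25 ± 0.15). Pdp2 was detected on no REST KO array and on all 3 controls, so it met the detection filter through the controls alone. That selection favours a lower REST KO value. The limma adjusted p of Pdp2 (0.12, and 0.0344 without control replicate 2) is therefore no independent support. Its control mean was 1.17-fold above the REST KO bound.

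Of 15 probes of other HIF pathway regulators (2 with an unadjusted p under 0.05), Arnt, the partner of the HIF alpha subunits, had -0.63 ± 0.15 on its tested probe (limma adjusted p = 0.0854). Another Arnt probe, detected on no REST KO array and on 1 control, was not tested, and its arrays overlapped. Egln2, a further prolyl hydroxylase, had -0.36 ± 0.14, and Vhl, which targets hydroxylated HIF for destruction, had 0.26 ± 0.20. Of 21 probes of other HIF targets (8 with an unadjusted p under 0.05, 11 above 0 and 10 below), the vasoconstrictor gene Edn1 had 0.84 ± 0.24 (limma adjusted p = 0.124). Gys1, glycogen synthase, had -0.61 ± 0.16 (limma adjusted p = 0.107, and -0.77 ± 0.13 without control replicate 2, adjusted p = 0.0191), with 1 REST KO array and all 3 controls detecting it. Hmox1, heme oxygenase, had 0.60 ± 0.37 (limma adjusted p = 0.405), and 1.07 ± 0.16 without control replicate 2 (adjusted p = 0.016). The pentose phosphate pathway had 7 probes with differences from -0.19 to 0.00 (0 with an unadjusted p under 0.05), with H6pd (-0.19 ± 0.12), Taldo1 (-0.16 ± 0.11) and Pgls (-0.07 ± 0.11) the largest in size. Gluconeogenesis had 3 (1 with an unadjusted p under 0.05): Fbp2 with -0.77 ± 0.24 (limma adjusted p = 0.143, and -1.01 ± 0.19 without control replicate 2, adjusted p = 0.0241), G6pc3 with -0.22 ± 0.12 and Pcx with -0.05 ± 0.13. Without control replicate 2, where 14.5% of all tested probes were called, limma called 5 higher and 1 lower of the 21 other HIF target probes. It called 1 higher of 8 among the other isozymes and 1 lower of 3 for gluconeogenesis. In the pyruvate dehydrogenase list it called 1 lower of 6, which was Pdp2, with the limit given above. Of the 15 probes of other HIF pathway regulators and the 7 of the pentose phosphate pathway it called 0.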

How the data were processed

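Gene expression was measured in total RNA of 3 REST KO and 3 control samples on 1 bead chip. The authors deposited mean bead intensity per probe, not normalized (BeadStudio 3.3.7, per the file headers), with the beads' standard deviation and the count of beads. They also deposited a detection score, a fraction between 0 and 1 that rises with the signal, so 1 minus it was taken as the detection p. The authors' deposited log2 values equalled quantile-normalized log2 intensities within 5e-09. Their table of log2 fold changes and p-values was made with limma, per the labels, and used only where named. The sources used here do not give its model options or genome build. A further 30 columns of per-sample values were not used.

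From the intensities, background was corrected with the detection p, an offset of 16 was added and arrays were quantile normalized (neqc, limma 3.58.1, R 4.3.3). Tested probes were those detected (p under 0.05) on 3 or more of 6 arrays, with lmFit and eBayes on genotype, two-sided, with Benjamini-Hochberg adjustment over all 11388. All adjusted p values are limma's. Errors are standard errors of fold changes or SDs over 3 arrays. The offset pulls dim fold changes toward 0, and the number of arrays limits precision. The script was tested on simulated data. The mean squared difference between replicate arrays was at least 4.89 times that expected from the bead error, so none were merged.

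The members, lists and tests were chosen with earlier results of these data known. Values on every array are given for member probes called, for up to 10 without overlap between genotypes, for up to 10 called without control replicate 2 and for paralogues. Genes of the further lists are named if called or among the 3 largest differences. Alternatives were the normalization, offset, filter, array weights, eBayes options, a replicate block and leaving out each array.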

Additional observations from a re-analysis of the deposited data

How the results depend on the processing

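Over all tested probes limma called 145, 332 with quantile normalization without background correction and with the authors' deposited values, 274 with an offset of 50, 364 with a trended, robust eBayes, 1386 with array weights, 50 with no filter and 69 with probes detected on all 6 arrays. Of the glycolytic enzymes 0 probes were called, 2 (Pfkp and Pgk1, lower) without background correction, with the authors' values, with median scaling, with an offset of 50 and with trended eBayes, and 6 with array weights. Array weights called 1 probe of flux and pyruvate entry (Pfkfb4), 1 of the HIF subunits and prolyl hydroxylases (Egln3) and 2 of the HIF targets (Ddit4 and Plod2). Leaving out 1 array gave 0 to 1647 calls over all probes, 0 to 9 for the enzymes, 0 to 1 for flux, 0 to 1 for the HIF subunits and prolyl hydroxylases and 0 to 5 for HIF targets, the highest each time without control replicate 2. Over all probes the count was 0 without control replicate 1 or any 1 REST KO array (1449 to 2086 with an unadjusted p under 0.05) and 250 without control replicate 3, where Pgk1 was the 1 enzyme called. Leaving out an array refits with 5 arrays.

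The labels do not say whether replicate numbers pair the samples. Deviations of same-numbered arrays correlated at -0.27, 0.34 and 0.36. Arrays of different numbers were not compared in this way, so these values cannot decide whether the samples were paired. With the number as a replicate block limma called 0 of 11388 probes and 0 members (2376 probes had an unadjusted p under 0.05).

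For the 21 member probes given on every array, 298 of 336 values under alternatives kept their direction and side of the threshold, 33 passed it and 0 lost it, since none had passed. Directions turned in 5, all near 0: the Pfkm probe, at -0.041 to 0.44 with 1 array left out, was below 0 without control replicate 1 (-0.0088) or 3 (-0.041), Pdk1, at -0.054 to 0.14, was below 0 without control replicate 1 (-0.054) and with median scaling (-0.034), and Pdk3, at -0.16 to 0.13, was above 0 without REST KO replicate 3 (0.13). The cause was not tested. Signal near background limits Pgk1 in REST KO cells, Ndrg1 and the 19 member probes that were not tested.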

Other observations

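The levels of 5 pathway genes outside the list are given here, picked after their values were seen. Slc2a1, the broadly expressed glucose transporter, had log2 levels of 13.86, 13.78 and 13.77 in REST KO cells, against 13.46, 13.38 and 13.58 in control cells (0.33 ± 0.10, limma adjusted p = 0.139). Control replicate 2 was the lowest of these, unlike its place in Tpi1, Ldha and Eno1, and the value was 0.28 ± 0.10 without it (adjusted p = 0.117). Slc2a3, the glucose transporter with the higher affinity, had -0.04 ± 0.13 with overlapping arrays. Stc2, a secreted glycoprotein gene, had 7.84, 7.97 and 7.75 in REST KO cells, against 7.06, 7.38 and 7.30 in control cells (0.60 ± 0.12, limma adjusted p = 0.0643, and 0.67 ± 0.12 without control replicate 2, adjusted p = 0.0223). Arnt had 6.62, 7.05 and 6.86 in REST KO cells on its tested probe, against 7.50, 7.63 and 7.29 in control cells (limma adjusted p = 0.0854). Hmox1 had 7.56, 7.45 and 7.49 in REST KO cells and 6.70, 7.82 and 6.17 in control cells, with control replicate 2 above all REST KO arrays (0.60 ± 0.37, limma adjusted p = 0.405, and 1.07 ± 0.16 without control replicate 2, adjusted p = 0.016).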
